A study of Mus musculus with 5 samples.

Results

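Mitochondrial ribosomal protein genes were described here by the marks that PABPC1, which binds poly(A) tails in the cytoplasm, left on their mRNAs in MEL cells, a mouse erythroleukemia line. The members were the genes of the mRNA-seq list whose symbol starts with Mrpl or Mrps followed by a digit and which the GENCODE M21 annotation types as protein-coding. Of 18349 listed genes, 13456 were protein-coding and 80 carried such a symbol. The annotation types 4 of the 80 as processed pseudogenes, which left 76 members. By their known place in the particle, 49 belong to the large subunit and 26 to the small one. The remaining member, Mrps36, is now known as a part of the 2-oxoglutarate dehydrogenase complex and is kept apart below. The ribosome proteins Mrpl57 and Mrpl58 are listed under their older symbols, Mrp63 and Ict1, so the rule did not take them, and they stand with the other genes of the pathway.

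Mitochondrial ribosomes translate the few proteins that the mitochondrial genome encodes, all of them membrane parts of the oxidative phosphorylation system. Their RNA is made in the organelle, while their proteins come from nuclear genes whose mRNAs are polyadenylated, translated on cytosolic ribosomes and imported. Some of these proteins have counterparts in bacterial ribosomes and others were gained in the mitochondrial lineage. PABPC1 coats the poly(A) tail and takes part in translation and in the control of mRNA decay.

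The data came from MEL cells of 1 line, which the labels' file names place at day 0 and for which they state neither a treatment nor a genetic change. In the 3 CLIP-seq samples, cells were irradiated on ice with ultraviolet light at 400 mJ/cm2, and RNA joined to PABPC1 was recovered with an antibody against that protein after RNase treatment. In the 2 mRNA-seq samples, poly(A) RNA was selected with oligo(dT) beads and fragmented. The deposited files pool the CLIP-seq samples into 1 list of 90337 peaks and 1 list of 11907 deletion sites, and give a single RPKM per gene (reads scaled to gene length and library size) for the mRNA-seq samples. No value below therefore has a replicate error, no comparison between samples was possible and no p-value is given. Intervals in brackets are exact (Clopper-Pearson) 95% binomial intervals and cover counting error only. All values come from whole cultures, so differences between cells of a culture cannot be told apart from the level per cell.

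The erythroid markers were all listed, 12 of 12, from 5.61 RPKM for Hbb-bt to 428 RPKM for Klf1. Gata1 was at 211 RPKM, while the globin genes Hbb-bs and Hba-a1 were at 19.6 and 38.3 RPKM. Being listed does not by itself mean a high level. Of 8 fibroblast markers, examined because the growth protocol also names a fibroblast line, 5 were not listed, Col1a1 was at 0.873 RPKM and Col5a2 at 0.00592 RPKM. Thy1, a surface protein also found on blood cells, was at 65.3 RPKM. For 11 members whose identifier version matched the annotation, the RPKM could be turned back into pooled reads, from 1759 for Mrpl14 to 27434 for Mrpl12.

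Every member with an RPKM of at least 1 carried PABPC1 tags on its exons. This held for 75 of 75 genes (100%, interval 95.2 to 100%), beside 96.6% of all 10246 protein-coding genes above that RPKM, a group that includes the members. A peak of at least 10 tags, taking the authors' score as height in tags, was present in 74 of 75 members (98.7%), beside 89.9%. The height reached 100 tags in 61 of 75 members (81.3%, 70.7 to 89.4%), beside 46.4% of all protein-coding genes. A deletion site, a base missing from several tags as happens when reverse transcriptase crosses the linked base, lay in the exons of 38 of 75 members (50.7%, 38.9 to 62.4%), beside 37.0%, and in the 3' UTR of 31 of 75 (41.3%), beside 35.1%. The members were also more abundant mRNAs, with a median of 59.1 RPKM against 19.6 RPKM for all protein-coding genes. Where genes of like abundance were set side by side, the share with a deletion site was near the background, as described further on.

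**Figure D1:**
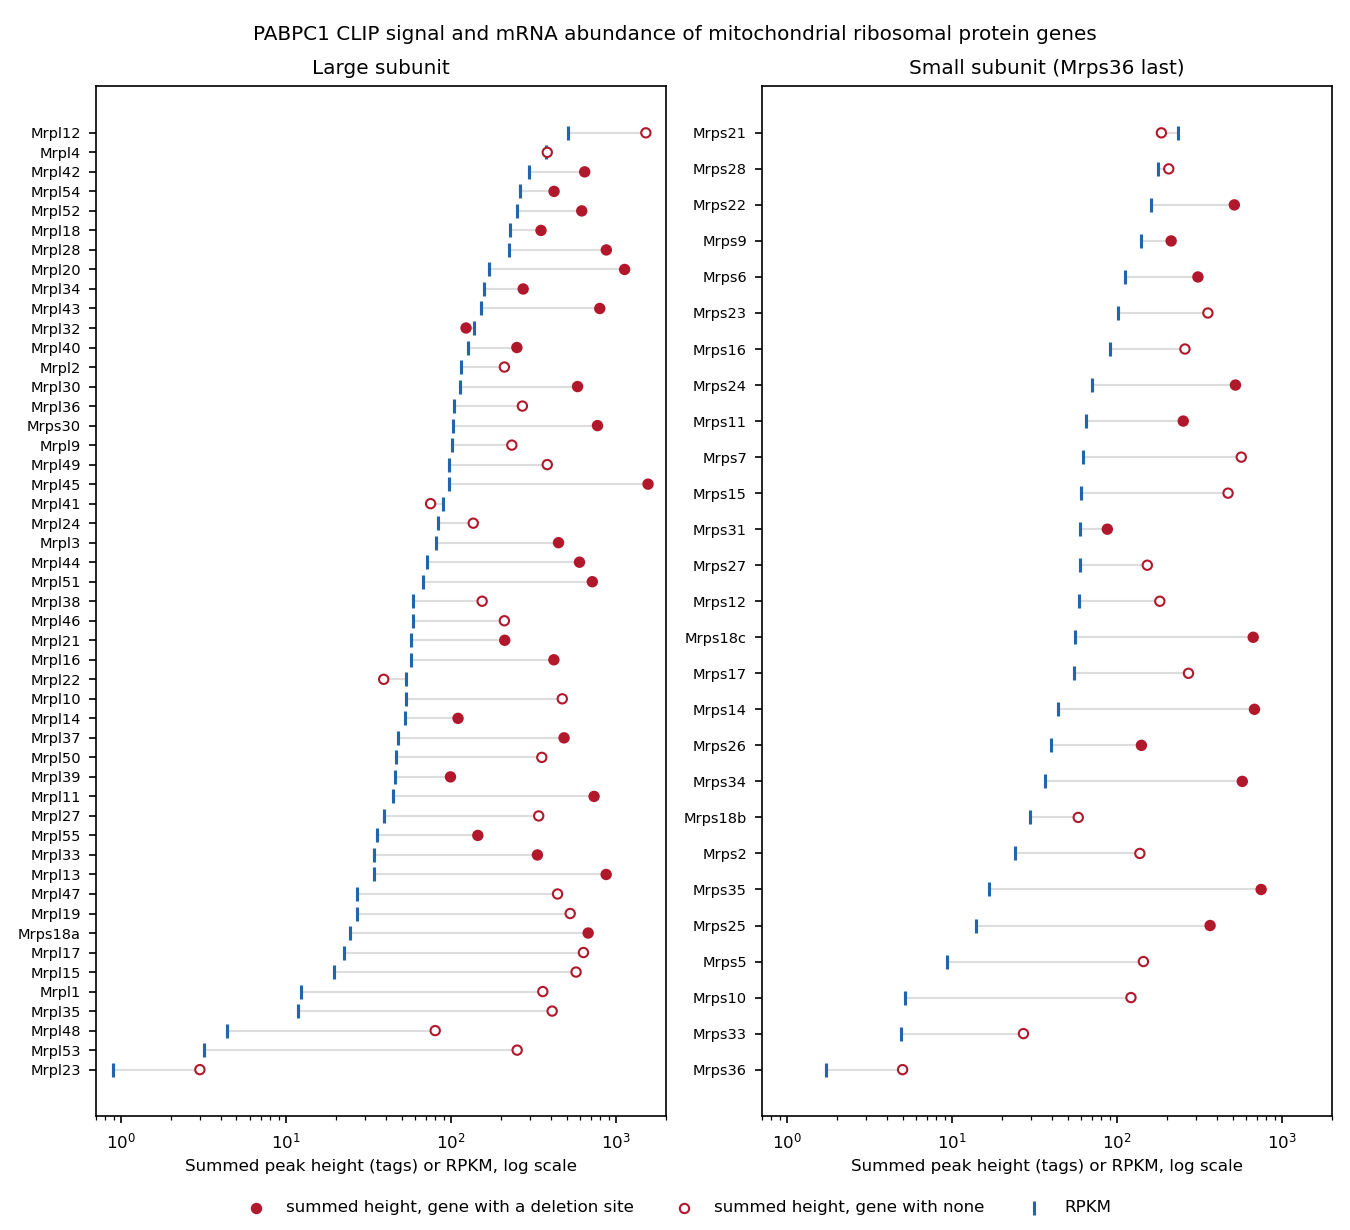
Summed height of exonic PABPC1 peaks (tags, circles) and mRNA abundance (RPKM, blue ticks) of the 76 members, both on a log axis, with large-subunit genes on the left and small-subunit genes on the right, in order of RPKM. Filled circles mark genes with a deletion site. The RPKM spans 0.894 to 508 while most summed heights lie between 100 and 1000 tags. On the left no gene below Mrps18a, at 24.3 RPKM, has a filled circle. On the right Mrps25 and Mrps35, at 13.9 and 16.7 RPKM, have one.

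The most abundant member was Mrpl12, which builds the flexible stalk that calls in translation factors, at 508 RPKM. Mrpl4, counterpart of bacterial L4, followed at 377 RPKM, and Mrpl42, a protein with no bacterial counterpart, at 298 RPKM. Next in order stood Mrpl54, Mrpl52, Mrps21, Mrpl18 and Mrpl28, between 222 and 259.9 RPKM. Mrps21, the counterpart of bacterial S21, was the only small-subunit gene among these 8. At the low end were Mrpl23 at 0.894 RPKM, Mrps36 at 1.71, Mrpl53 at 3.16 and Mrpl48 at 4.40 RPKM. Mrps33, Mrps10, Mrps5 and Mrpl35 completed the lowest 8, between 4.91 and 11.8 RPKM. In all, 13 members overlap another gene on the same strand. Neighbours in this order cannot be ranked firmly, since each RPKM is a single pooled value.

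For 3 of the 4 genes at the bottom of that order, a processed pseudogene of the same name was listed far above the gene. Mrpl23-ps1 was at 57.9 RPKM, Mrpl48-ps at 139 RPKM and Mrps36-ps1 at 18.3 RPKM, and a second Mrps36 copy at 1.10 RPKM. Reads of near-identical copies can be assigned to either, so the abundance of Mrpl23, Mrpl48 and Mrps36 is uncertain. The CLIP lists showed the reverse order for Mrpl48, with 7 exonic peaks of summed height 80 tags on the gene and no peak on its pseudogene. Mrpl23-ps1 had 2 peaks of summed height 30 tags against 1 peak of 3 tags on Mrpl23, and Mrps36-ps1 had 1 peak of 4 tags against 1 of 5 tags on Mrps36.

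The tallest single peak was on Mrpl45, a protein of the exit-tunnel region that faces the inner membrane, with 1145 tags over 165 nt of its 3' UTR (mm10 chromosome 11, 97328961 to 97329125, plus strand). Mrpl12 followed with 897 tags in its 3' UTR (chromosome 11, 120488453 to 120488798, plus strand). Mrpl20, counterpart of bacterial L20, had 810 tags, Mrpl28 had 740, and Mrpl43, which has no bacterial counterpart, 727. The other 3 of the tallest 8 were Mrpl51 with 687 tags, Mrps30 with 625, and Mrpl11, a protein of the stalk base, with 612. Mrps30 is a large-subunit protein in spite of its name, so all of these 8 genes encode large-subunit proteins. At the other end, 15 of the 76 members had no peak of 100 tags. The lowest were Mrpl23 with 3 tags, Mrps36 with 5, Mrps33 with 13 and Mrps18b with 21. Mrpl22, which lines the exit tunnel, followed with 32 tags and Mrpl41 with 33 tags.

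The tallest peak lay over a stop codon in 50 of 75 members (66.7%, 54.8 to 77.1%), beside 21.6% of all protein-coding genes. Peaks over stop codons were also more frequent among abundant and short genes at large, and the members are both. In genes of 20 to 100 RPKM the share was 65.9% of 41 members against 27.6% of all, and at 100 RPKM and above it was 73.9% of 23 members against 52.1% of all. In genes with under 1500 nt of annotated exon it was 70.5% of 44 members against 43.4% of all, and in longer genes 61.3% of 31 members against 18.1%. The members' share was the higher one in each of these classes. At 100 RPKM and above, with 23 members, the exact interval of their share includes that of all genes. Abundance and length were split one at a time and not together. Among nuclear-encoded respiratory chain genes the share was 68.8% of 80, and among cytosolic ribosomal protein genes 27.3% of 77. The members' exonic peaks were also wider, with a median of 96.5 nt against 74 nt for all, and the part of width in this result was not tested. A peak over the start codon was the tallest in 1 member, Mrpl42, whose 282 tags fell on the 5' UTR and first codons (chromosome 10, 95500421 to 95500518, minus strand).

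By midpoint, the members' peaks lay mostly in coding sequence (CDS), while most of their height lay in the 3' UTR. Of 346 exonic peaks, the CDS held 206 (59.5%), the 3' UTR 126 (36.4%, 31.3 to 41.7%) and the 5' UTR 14 (4.05%). Among all protein-coding genes the CDS held 42.4% of exonic peaks and the 3' UTR 55.0%. The 3' UTR held 66.3% of the members' summed height and 59.5% of their annotated exon length, against 78.4% of height and 45.0% of length for all protein-coding genes. A median peak had 66.5 tags in the members' 3' UTRs and 14 tags in their CDS, against 13 and 8 tags for all. In the most abundant class, at 100 RPKM and above, the 3' UTR held 30 of 100 peaks in members and 28.3% in all, while in the classes below it was lower in members, at 35.5% against 48.5% for 20 to 100 RPKM and 44.3% against 68.6% for 5 to 20 RPKM. By gene, 67 of 75 members had a CDS peak (89.3%, background 69.8%), 64 a 3' UTR peak (85.3%, background 92.2%) and 12 a 5' UTR peak (16.0%, background 14.1%).

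**Figure D2:**
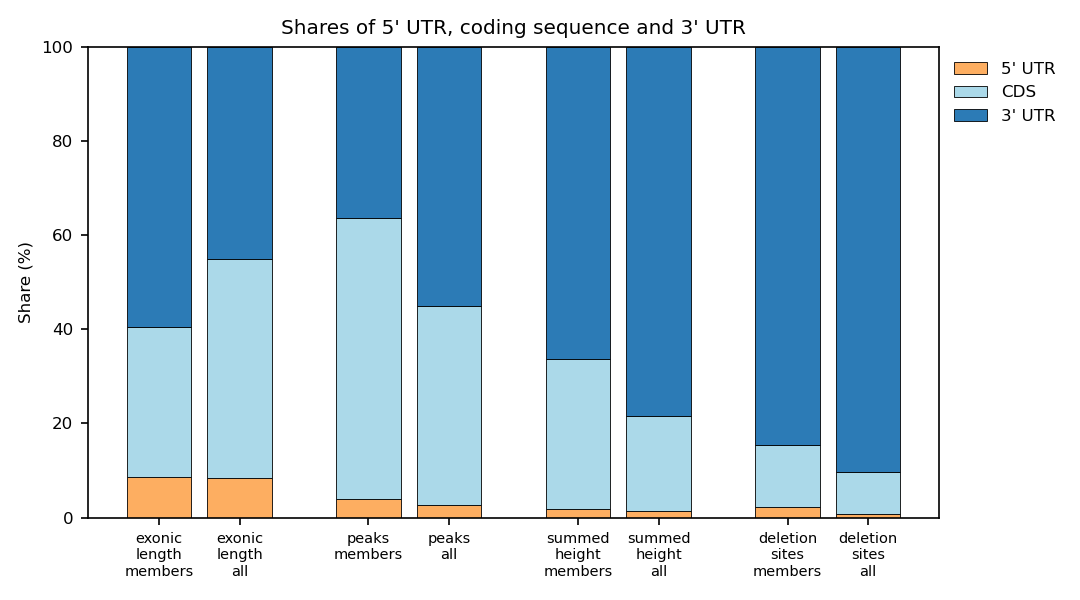
Shares (%) of 5' UTR, CDS and 3' UTR in annotated exon length, number of peaks, summed peak height and number of deletion sites, with members left and all protein-coding genes right in each pair. The 3' UTR part of the members grows from 36.4% of peaks to 66.3% of summed height and 84.6% of deletion sites.

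Deletion sites narrow a contact to a few bases. The 91 exonic sites of the members formed 62 groups when sites within 10 nt were joined, and 87 of the 91 lay inside a peak. They were in the 3' UTR in 77 cases (84.6%, 75.5 to 91.3%), in CDS in 12 (13.2%, 7.00 to 21.9%) and in the 5' UTR in 2. Among the 9686 exonic sites of all protein-coding genes these shares were 90.3%, 8.92% and 0.785%. The sequences around the 3' UTR site with most deletions are printed below for the 10 members with the highest such counts. This order is by count of deletions, not by the share of tags that carry one. Each line gives 30 bases of the transcript in the direction of the mRNA, with the deleted base in capitals. Capitals also mark 4 hexamers wherever they occur in the printed bases: the poly(A) signal AATAAA, its common variant ATTAAA, the motif ATATAA and the run AAAAAA. The bases are those of the GENCODE M21 transcripts on GRCm38, the assembly also called mm10.
Mrps35: ttagtcactgatttgATATAAatgggagaa
Mrpl16: gcgacaatctgcgccTttactgtcctgagg
Mrpl13: ctgtgtaacctgcttTaaatgctacacatg
Mrpl45: gttgtggtgaacatcTttaatcccagcact
Mrps14: gaattgtctttcaacTttaaagcatagtac
Mrpl51: gtgtgctcgatgtAATAAAAAAAtggggct
Mrps24: tgtacaagtacATATAAaaagtgcactttt
Mrpl44: tgtgaagttcgttgtAatatgAATAAAaag
Mrpl18: gacatgagatgtattTaaggaaagtagtca
Mrps34: acacatcaggcaatgAataatggggcagat

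The site with most deletions in the whole group was in Mrps35, a small-subunit protein with no bacterial counterpart. At chromosome 6, position 147070880 on the plus strand, 191 of 572 tags (33.4%) lacked the base, and the neighbouring base had 191 deletions as well. The site lies inside ATATAA, 60 nt after the last coding base. The annotated M21 transcript ends 3111 nt further on, but the RefSeq gene ends 26 nt after the site. The mRNA was at 16.7 RPKM, among the less abundant members, and its tallest peak had 604 tags.

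Mrpl16, counterpart of bacterial L16, had 132 deletions in 386 tags at chromosome 19, position 11774683, plus strand, 53 nt after the coding end. No hexamer of the 4 stands in the printed bases. Mrpl13, counterpart of bacterial L13, had 117 deletions in 533 tags at chromosome 15, position 55534135, minus strand, 41 nt before the transcript end. Mrpl45 had 99 deletions in 256 tags at chromosome 11, position 97328614, plus strand, 49 nt after the coding end and 1306 nt before the transcript end. This site was not under the tall peak of 1145 tags but under a second one of 294 tags, and 6 further listed bases lay under the tall peak with 13 to 27 deletions each. The strongest of these, at position 97329086, stands in an AATAAA 834 nt before the transcript end.

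Mrps14, counterpart of bacterial S14, had 3 sites, with 79, 62 and 61 deletions. The first is shown above (chromosome 1, position 160199776, plus strand, 79 of 292 tags), 36 nt before an annotated end. The second is 23 nt downstream of it in an AATAAA, 13 nt before that end, with 62 deletions in 488 tags. The third, at position 160200036 in the longer 3' UTR, lay outside every listed peak although 207 tags covered it. In Mrpl51, a protein with no bacterial counterpart, 59 of 676 tags lacked the T of an AATAAA that runs on into further A (chromosome 6, position 125193497, plus strand). That site was 2772 nt before the M21 basic transcript end and 61 nt before the nearest end when all annotated transcripts and RefSeq were counted.

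The remaining 4 printed sites had fewer deletions. Mrps24, counterpart of bacterial S3, had 57 deletions in 303 tags 2 nt after the last coding base (chromosome 11, position 5704450, minus strand), at an ATATAA that includes its stop codon, which is counted with the 3' UTR. Mrpl44, a protein with a ribonuclease III fold, had 39 deletions in 562 tags 25 nt before the transcript end (chromosome 1, position 79781420, plus strand). Mrpl18 had 37 in 194 tags, 52 nt before the end (chromosome 17, position 12911401, minus strand). Mrps34, a small-subunit protein with no bacterial counterpart, had 34 in 445 tags, 91 nt before the end (chromosome 17, position 24896198, plus strand). Mrps24 and Mrps34 overlap another gene on the same strand, Urgcp and Nme3.

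Counted over all their sites, the members with most deletions were Mrps35 with 382, Mrpl45 with 227, Mrps14 with 202, Mrpl43 with 159 and Mrpl51 with 143. Mrpl43 reached its total through 7 closely spaced bases with 13 to 26 deletions each, under a peak of 727 tags. Mrpl13, Mrpl16, Mrps24, Mrpl44, Mrps34, Mrps30, Mrpl55, Mrpl37, Mrpl42 and Mrpl20 followed, between 57 and 142 deletions. These counts are not corrected for the depth of tags, and the median site of the members had 16 deletions in 216 tags, against 13 in 149 tags for all protein-coding genes. As a share of tags the median was 9.29% for the members and 10.7% for all.

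Coding-sequence sites were found in 9 of 75 members (12.0%, 5.64 to 21.6%), beside 4.82% of all protein-coding genes. Among all genes such sites were more frequent in abundant mRNAs. By class they were found in 5 of 41 members (12.2%, 4.08 to 26.2%) against 5.89% of all at 20 to 100 RPKM and 4 of 23 (17.4%, 4.95 to 38.8%) against 18.4% at 100 RPKM and above, and both intervals included the share of all genes. Most of the members' sites in CDS lay near its end. Of the 12 sites, 8 (66.7%, 34.9 to 90.1%) were within 30 nt before the last coding base and 11 within 120 nt, against 17.8% and 38.2% of the 864 CDS sites of all protein-coding genes. Joined sites gave 6 of 10 against 17.6% within 30 nt. These distances were chosen after the sites had been seen. The strongest site of each joined group is printed because 6 of these 10 lie within 30 nt of the coding end. Capitals again mark the deleted base and the hexamers.
Mrpl55: ttttgacactgaacgATATAAacagttttg
Mrpl52, first site: caaacctaaagggacTttactgagaagccc
Mrpl52, second site: gcccacttccgaatcAATAAAaagcagctc
Mrpl3: cctttccccacctacTttcctgatggagat
Mrpl20: tatgaaccaaagacgTttaaatctttggct
Mrpl37: tgtacttgcatggtgTtgtgtgaactaaga
Mrps22: caaacttatcaagaaAtagttaccagtcat
Mrps18c: gaaagaaacagagggAaataactaaagcca
Mrpl14: gccatcgctcagaacTttgtgtgagcagag
Mrpl30: gcacattgtcacaagAataagaagtacaaa

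In Mrpl52, a large-subunit protein with no bacterial counterpart, the AATAAA of the second site includes the stop codon TAA. There 26 of 496 tags lacked the base before the last coding base (chromosome 14, position 54429724, plus strand), 32 nt before the transcript end. The first site, 27 nt before the coding end at position 54429698, had 28 deletions in 155 tags. The gene's annotated 3' UTR is only 31 nt long, so the coding end and the transcript end fall within one peak of 537 tags.

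Mrpl55, the mitochondrial relative of bacterial L31, had the highest deletion rate of the coding sites, with 36 of 93 tags (38.7%) at an ATATAA, 30 nt before the coding end (chromosome 11, position 59205774, plus strand). Mrpl14, counterpart of bacterial L14, had 9 of 40 tags (22.5%) at a base 5 nt before the coding end. Mrpl37 had 15 deletions in 183 tags 4 nt before it, and Mrps22, mutated in a human mitochondrial disease, 12 in 290 tags 26 nt before it. The sites of Mrpl3, a protein of the peptidyl transferase region, Mrpl20 and Mrps18c were 86, 110 and 109 nt before the coding end with 17, 15 and 11 deletions. Mrpl30 had the one site further in, 267 nt before it, with 9 deletions in 143 tags.

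Both sites in a 5' UTR were in large-subunit genes. In Mrpl42, 26 of 280 tags lacked an A under the peak over its start codon (chromosome 10, position 95500481, minus strand). In Mrpl21, all 9 of 9 tags carried the deletion, outside any peak (chromosome 19, position 3283041, plus strand). A base missing from every tag also occurred in Mrpl16 (3 of 3 tags, at 2 adjoining bases in a run of A near its transcript end) and in Mrpl34 (3 of 3 tags).

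The deleted base was an A at 47 sites, a T at 42 and a G at 2, and never a C (upper limit of the exact interval 3.97%). A C was deleted at 11 of 190 sites of respiratory chain genes and 12 of 140 sites of cytosolic ribosomal protein genes. In the other genes of the pathway it was deleted at 1 of 27 sites (3.70%), a share under the members' upper limit. Adjoining bases count separately here, so the lack of C is not shown to set the members apart. In 68 of the members' 91 sites (74.7%) the deleted base stood in a run of at least 2 of the same base, against 72.6% of all protein-coding sites. Within such runs 80.9% of the members' sites and 78.5% of all were at the lowest genome coordinate of the run, so the listed base marks the run and not a known position in it. Many of the printed T sites read TTTA: 19 of the 42 deleted T (45.2%, 29.8 to 61.3%) stood inside TTTA read along the mRNA, against 40.6% of the 4676 deleted T of all protein-coding genes. That motif was chosen after the sequences had been seen.

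The distance from 3' UTR sites to the nearest annotated transcript end was a median of 123 nt in members and 125 nt in all protein-coding genes. With sites within 10 nt joined and counted once, the medians were 80 nt in 50 sites of members and 134 nt in all. Of the members' 77 sites, 29 (37.7%, 26.9 to 49.4%) were within 50 nt of an end, against 34.1% of all. A canonical poly(A) signal, AATAAA or ATTAAA, stood within 50 nt on the transcript strand of 42 sites (54.5%, 42.8 to 65.9%), against 53.7% of all. Several long M21 transcripts place a site far from the end, as in Mrps35. When RefSeq gene ends and the ends of all annotated transcripts were added, a choice made after the distances had been seen, the medians were 57 nt in members and 79 nt in all.

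**Figure D3:**
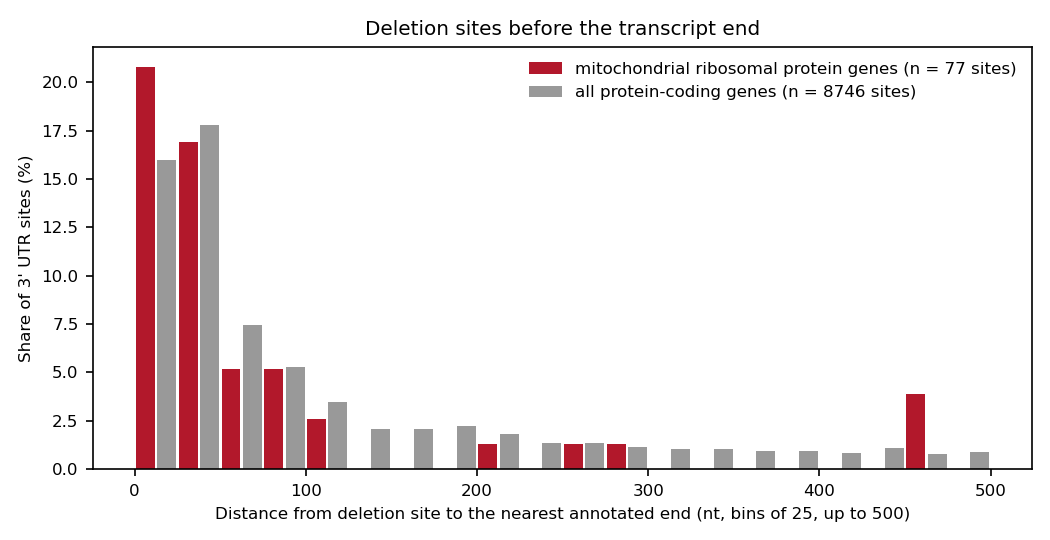
Distance (nt, bins of 25 nt, shown up to 500 nt) from 3' UTR deletion sites to the nearest annotated transcript end, as a share (%) of 77 sites in members (red, left in each pair) and 8746 sites in all protein-coding genes (grey). Within the range shown, the first 50 nt hold the most sites in both groups, with 37.7% of the members' sites and 34.1% of all.

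Within 20 nt of a site and on the transcript strand, AATAAA was found at 31.9% of the members' 91 sites and 31.0% of all 9686 sites. ATATAA was found at 9.89% against 13.0%, AAAAAA at 13.2% against 11.6% and ATTAAA at 1.10% against 4.94%. None of the 4 stood near 52.7% of the members' sites, against 48.9% of all. The 9 sites with ATATAA belonged to 4 genes, Mrps24, Mrps35, Mrps31 and Mrpl55, so they are not 9 separate cases. Measured from the other side, the members' 3' UTR sites were nearer to the coding end, at a median of 178 nt after it against 457 nt for all, beside a median annotated 3' UTR length of 399 nt in members against 1177 nt in all.

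The height of CLIP signal followed mRNA abundance only loosely across the members. Over 75 members, Spearman's rho between summed peak height and RPKM was 0.227 and Pearson's r between their log2 values was 0.444. Over 9897 protein-coding genes with a peak these were 0.660 and 0.671. The RPKM of these members ran from 1.71 to 508, and that of all 10246 protein-coding genes from 1.00 to 4768. A narrower range can lower a correlation, and its part here was not tested. Both measures share the cells and the annotation, genes are not independent replicates, and summed height is not divided by transcript length while RPKM is.

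**Figure D4:**
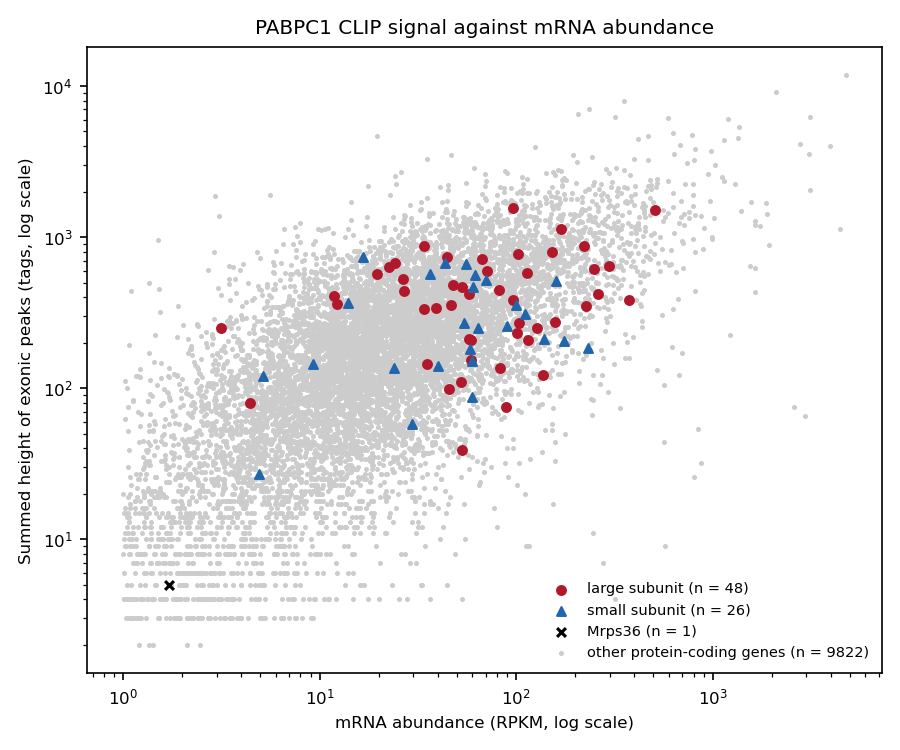
Summed height of exonic peaks (tags) against RPKM, both on log axes, for genes with an RPKM of at least 1 and a peak. Large-subunit members are red circles, small-subunit members blue triangles, Mrps36 a cross and the other protein-coding genes grey points. The members lie inside the grey cloud, and of the 23 at 100 RPKM and above, 6 exceed the median ratio of height to RPKM of that class.

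Expressed as log2 of (summed height + 1) over (RPKM + 1), the members' median was 2.24, with a range of -0.44 to 5.92, against 2.78 for all protein-coding genes. Transcript length differed as well, with a median annotated exon length of 1363 nt in members against 3233 nt for all. Per kilobase of exon the order turned round, with a median of 1.69 in members against 1.13 in all. The ratio of members with under 1500 nt of exon had a median of 1.74 (n = 44) and that of longer members 3.12 (n = 31), against 1.92 and 2.89 for all protein-coding genes.

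The 8 members highest on this ratio all had an RPKM under the members' median. RPKM is the divisor of the ratio, so low RPKM at its top and high RPKM at its bottom are partly built into the measure. Mrpl53, with no bacterial counterpart, had 251 tags at 3.16 RPKM (log2 ratio 5.92), in 1 peak on its 3' UTR that also lies in an exon of the overlapping gene Gm42688. Mrps35 followed at 5.40, and Mrpl35 at 5.00 with 409 tags at 11.8 RPKM. Mrpl15, Mrpl17, Mrpl1, Mrps18a, a large-subunit protein in spite of its name, and Mrpl13 were between 4.64 and 4.80. Mrpl1 stood apart in form, with 18 exonic peaks of which the tallest had 100 tags, while 44 of the 76 members had 4 peaks or fewer.

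The 8 lowest ratios belonged to mRNAs of 53.3 RPKM or more. Mrpl22 had 39 tags at 53.3 RPKM (log2 ratio -0.44). Mrps21 had 185 tags at 232 RPKM (-0.33), Mrpl41 75 tags at 89.2 RPKM (-0.25) and Mrpl32, whose protein is cut by a mitochondrial protease before assembly, 123 tags at 137 RPKM (-0.15). Mrpl4 was at 0.02, with 382 tags at 377 RPKM, and Mrps28, Mrps31 and Mrps9 were between 0.22 and 0.61. These values fall below the median of all protein-coding genes in their abundance class.

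The shares were then taken within classes of like abundance. A deletion site was present in 0 of 4 members of 1 to 5 RPKM against 6.95% of all, in 2 of 7 members (28.6%) of 5 to 20 RPKM against 25.1%, in 21 of 41 (51.2%) of 20 to 100 RPKM against 48.6%, and in 15 of 23 (65.2%) at 100 RPKM and above against 77.9%. In each class the members' interval included the share of all genes. The members' share with a tall peak was above that of all genes in each class, but each interval included the share of all. A peak of at least 100 tags was present in 1 of 4 members against 6.59% of all at 1 to 5 RPKM, in 71.4% (29.0 to 96.3%) against 29.5% at 5 to 20 RPKM, in 80.5% (65.1 to 91.2%) against 65.7% at 20 to 100 RPKM, and in 95.7% (78.1 to 99.9%) against 90.8% above. The median log2 ratio was 4.75 in members against 3.27 in all at 5 to 20 RPKM, 2.85 against 2.77 at 20 to 100 RPKM, and 1.20 against 1.73 at 100 RPKM and above. In all, 36 of 75 members lay above the median of their class, 7 of 7 at 5 to 20 RPKM and 6 of 23 in the most abundant class.

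**Figure D5:**
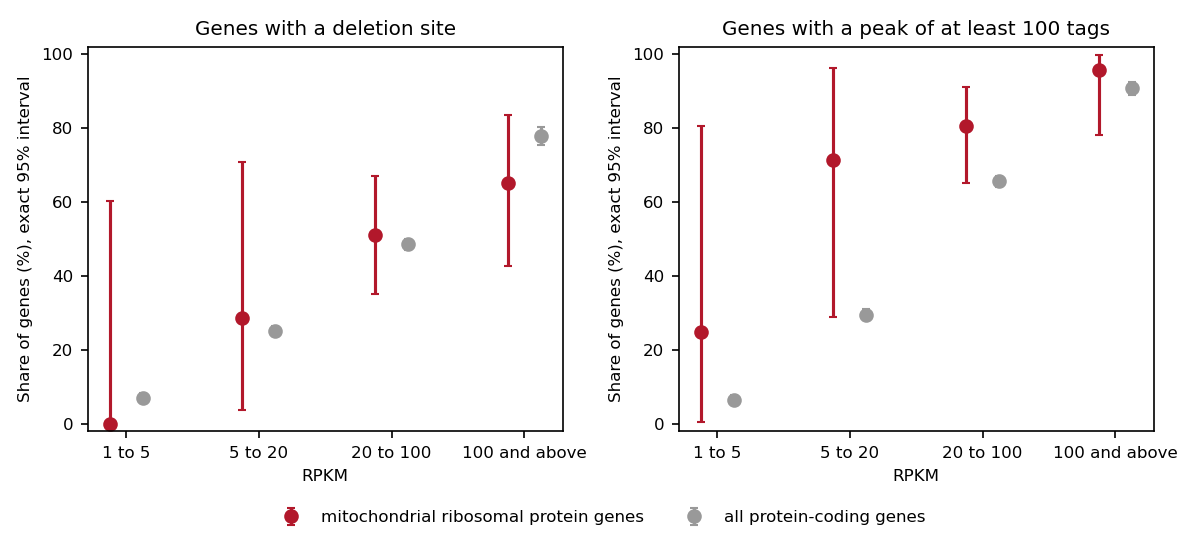
Share (%) of genes with a deletion site (left) and with a peak of at least 100 tags (right) in 4 classes of RPKM, for members (red) and all protein-coding genes (grey), with exact 95% intervals that cover counting error only. The members' share with a deletion site is 51.2% against 48.6% of all at 20 to 100 RPKM and 65.2% against 77.9% above. Their share with a tall peak is above that of all genes in each class, with intervals that include it.

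The subunits' intervals overlapped for deletion sites, which were present in 26 of 48 large-subunit genes (54.2%, 39.2 to 68.6%) and 12 of 26 small-subunit genes (46.2%, 26.6 to 66.6%). A peak of at least 100 tags was present in 42 large-subunit genes (87.5%, 74.8 to 95.3%) and 19 small-subunit genes (73.1%, 52.2 to 88.4%), and these intervals overlap as well. The median summed height was 395.5 tags for the large subunit and 254 tags for the small one, with median abundances of 63.2 and 58.9 RPKM. On the log2 ratio scale their medians were 2.36 and 2.10. The ATATAA was at 2 of 69 large-subunit sites (2.90%, 0.353 to 10.1%) and 7 of 22 small-subunit sites (31.8%, 13.9 to 54.9%). The 2 were adjoining bases in Mrpl55, and the 7 came from 3 genes and also include adjoining bases. The intervals treat such bases as independent, so they cannot show a difference between the subunits.

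Proteins with no bacterial counterpart had a deletion site in 17 of 27 genes (63.0%, 42.4 to 80.6%) and those with one in 21 of 47 (44.7%, 30.2 to 59.9%), with overlapping intervals. Their median log2 ratios were 1.97 and 2.35, and their median abundances 59.8 and 57.4 RPKM. By this split the listed sites were 53 in the newer proteins and 38 in the older ones. Neighbouring bases of the same contact count separately here, so these numbers do not compare separate contacts.

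Of 41 other genes that serve mitochondrial translation, 37 were found in the list by symbol. Of these, 36 had an exonic peak and 16 a deletion site (43.2%, 27.1 to 60.5%). Fastkd2, Mterf4, Mrm2 and Mrm3 were not found under these symbols, and other symbols for them were not searched. Tfb2m, a mitochondrial transcription factor at 11.6 RPKM, had no peak. Dap3, a small-subunit protein outside the naming scheme, had the tallest peak of the list, 1695 tags, above that of any member, and no deletion site. The mRNA-binding protein gene Slirp had a peak of 1166 tags and 157 deletions at 31.2 RPKM, and Tsfm, the elongation factor Ts, a peak of 645 tags and 248 deletions at 33.8 RPKM. Mrp63 had a summed height of 234 tags at 22.2 RPKM and 2 sites, and Ict1 443 tags at 26.0 RPKM and none. Among the 22 sites of the list in 3' UTRs, 21 (95.5%, 77.2 to 99.9%) had a canonical poly(A) signal within 50 nt. This compared with 54.5% of the members' 77 sites given above and 53.7% of the sites of all protein-coding genes. The share was 88.1% of 84 such sites in cytosolic ribosomal protein genes and 48.1% of 156 in respiratory chain genes. The 22 sites came from 14 genes, and the intervals treat neighbouring bases as independent.

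Other large families of ribosome and mitochondrial genes were set beside the members. A deletion site was present in 50.7% of members, against 67.5% of 80 respiratory chain genes and 45.5% of 77 cytosolic ribosomal protein genes, whose median abundances were 173 and 57.4 RPKM. The members' median log2 ratio of 2.24 compared with 1.88 for the respiratory chain and 0.95 for the cytosolic ribosomal proteins. The members' coding-sequence sites fell within 30 nt before the coding end in 8 of 12 cases. This compared with 5 of 34 for the respiratory chain and 19 of 51 for the cytosolic ribosomal proteins. Within 120 nt the respiratory chain had 20 of 34 and the cytosolic ribosomal proteins 19 of 51. Both distances were chosen after the members' sites had been seen, and neighbouring bases count separately. The cytosolic ribosomal protein genes have many near-identical copies in the genome, and how multiply placed tags were treated is not stated by the labels or files.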

How the data were processed

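The members, gene lists and windows were chosen with earlier results of these data known. CLIP-seq and mRNA-seq of MEL cells were used as deposited. Programs named in the submitters' processing notes, with no role given, are HTSeq 0.6.0, TopHat2 2.0.12, Novoalign 3.02.02 and cutadapt 1.4.2, and the build is mm10. The authors deposited a single RPKM per gene over the 2 mRNA-seq samples, and the list holds no gene at 0. As a check of the unit, all genes with few reads came out at whole reads within 0.01. The authors deposited peaks with a whole-number score of undefined meaning, read here as height in tags. Of the 10137 deletion sites inside a peak, 99.8% had no more tags than the score, as that reading requires. The same would hold if the score were the number of tags in the whole peak, so the check cannot tell these readings apart. The deposited deletion sites give the authors' counts of tags with the deletion and of tags covering the base. The thresholds of both lists are not given in the sources used here.

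RPKM rows were matched to GENCODE M21 by identifier or unique symbol (18192 of 18349), and Mrpl33 by symbol. Peaks were placed by midpoint and sites by position on basic transcripts, by strand, in the order 3' UTR, 5' UTR, CDS, noncoding exon, intron, with 1-based coordinates. The members also had 27 intronic peaks, the tallest of 65 tags, of which 7 lay in an exon of another gene, and 2 intronic sites; these were left out. CLIP signal was the summed height of exonic peaks. The ratio to RPKM used a pseudocount of 1 on both and genes with an RPKM of at least 1. Distances ran along the spliced transcript, and the coding end is the last base before the stop codon. Placement was tested on 2000 simulated positions, all recovered. The text names the 8 highest and 8 lowest members by RPKM and by ratio, the 8 tallest peaks, the 15 members with most deletions and each member with a CDS or 5' UTR site. Python 3.11.15, pandas 2.3.3, numpy 2.4.6, scipy 1.17.1 and matplotlib 3.10.9 were used. Alternatives in peak and site minimum, transcripts, region order, pseudocount, length and window were computed.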

Additional observations from a re-analysis of the deposited data

How the results depend on the processing

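With only sites of at least 10 deletions, 38.7% of members had a deletion site, against 28.5% of all protein-coding genes, and with only the tallest peak the median log2 ratio was 1.59 against 1.91. The 3' UTR share of peaks was 42.9% against 64.2% with peaks of at least 10 tags, and 44.9% against 61.4% with all annotated transcripts. A poly(A) signal within 20 nt stood at 37.7% of 3' UTR sites against 37.6%. The order of members and all protein-coding genes turned round for the log2 ratio per kilobase of exon (1.69 against 1.13). Joined sites gave a median distance to the transcript end of 80 nt against 134 nt. The order also turned for the distance to the end of the longest coding transcript, with 460 nt in members against 215 nt in all. The other alternatives moved the members' values by less than their intervals. No paired analysis was possible because the deposited files pool the replicates, and for the same reason no replicate could be left out. The RefSeq ends were added after seeing the data. Pooling hides any difference between samples, and in the 1 to 5 RPKM class, with 4 members, shares cannot be told apart from the background.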
